A study of Mus musculus with 4 samples.

Results

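The oxidative phosphorylation genes taken here were the 102 of 31053 features whose symbols start with Nduf, Uqcr or Atp5, with Cox followed by 4 to 8, or with mt-Nd, mt-Co, mt-Cytb or mt-Atp, leaving out symbols that hold -ps. They comprise 89 nuclear genes (38 named as complex I subunits, 8 complex I assembly factors, 8 of complex III, 18 of complex IV and 17 of complex V, the ATP synthase) and the 13 protein genes of the mitochondrial genome. The rule used names only, and no measured value. Atp5o is listed under 2 gene identifiers, of which one had no UMI in the melanotroph-like cells of any library and the other carried all the counts.

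The study sequenced single cells of whole mouse pituitary from animals that overexpress p25 (p25OE) and from wild-type littermates (WT), at 14 and at 40 weeks of age, with 1 droplet library for each genotype and age. All 4 libraries carry the strain label "C57BL/6- B6;CBA-BiTg mice", WT included, and the labels used here name neither the promoter that drives p25 nor the number of animals behind a library. p25 is a truncated product of Cdk5r1 that activates the kinase Cdk5. The labels speak of 2 genotypes in 2 independent runs without saying which library belongs to which run. Kept libraries of the same age shared 13 (14 weeks) and 85 (40 weeks) cell barcodes, and those of different ages 0 to 2. Whether this reflects the run, the kit or another batch is not in the labels, so age and batch cannot be told apart. Comparisons between the ages are given as values only.

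Mitochondria make most of a cell's ATP by passing electrons from NADH and succinate through complexes I to IV to oxygen, which drives protons across the inner membrane and powers the ATP synthase. Complexes I, III, IV and V are built from subunits of both genomes: the mitochondrial genome encodes a few hydrophobic core proteins, and the nucleus encodes the other subunits and all assembly factors. Several complex IV subunits exist as paired isoforms, one in most tissues and one in muscle, lung or testis. Melanotrophs are the Pomc-producing cells of the intermediate lobe, while corticotrophs, somatotrophs and lactotrophs of the anterior lobe make ACTH, growth hormone and prolactin.

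After leaving out barcodes with under 500 detected genes or over 20% mitochondrial UMIs (unique molecular identifiers, 1 per captured RNA molecule), the libraries held 6579 to 7927 cells and 49855919 to 91937204 UMIs. Cells were put into classes by marker genes alone, none of them a member. All 7 melanotroph markers (Pomc, Pcsk2, Pax7, Oacyl, Esm1, Tbx19 and Gulo) were at least 2-fold higher in the melanotroph-like class than in the median of the other classes, over all libraries summed. The gate itself uses Pomc, Pcsk2, Pax7, Oacyl and Esm1, so of the 7 only Tbx19 (64.4 against 5.61 CPM) and Gulo (138 against 3.08 CPM) are independent of it. Tbx19 was higher still in corticotroph-like cells (189 CPM), so it does not tell the melanotroph-like class from that one. That class held 569 of the 14-week WT cells and 1652 of the 14-week p25OE cells, then 657 and 6584 of the 40-week ones. Its gate starts at 10 marker UMIs per 10000, and 12, 72, 40 and 299 of its cells lay between 10 and 12.5. The libraries differed in free RNA, since Gh and Prl, made by other cells, gave 2.18%, 1.36%, 6.37% and 0.169% of melanotroph-like UMIs. Here and below, 4 values in a row are in the order 14-week WT, 14-week p25OE, 40-week WT, 40-week p25OE. Median depth there was 17470, 8657, 6567 and 7051.5 UMIs per cell. The part of free RNA and depth in the results below was not tested. With 1 library a group no test between genotypes was possible, so no p-value is given. Ratios carry exact 95% intervals that cover counting error only, and levels are scaled CPM (class sums per 1000000 UMIs after division by a median-of-ratios size factor). Each UMI stands for 1 captured RNA molecule, so levels were not divided by gene length. Cdk5r1 stood at 14.7, 24.7, 13.8 and 17.1 CPM in melanotroph-like cells, but whether its tags lie in the overexpressed sequence is not given in the sources used here, so this checks no label.

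Promoters of 71 of the 89 nuclear members were found in RefSeq's table (GRCm38.p6, 250 bases before to 50 bases after the gene's start, 76 promoters). The stretches upstream of the start are shown for 4 genes that carry the results below. In p25OE melanotroph-like cells Atp5l was lower at both ages, Cox6a1 at 40 weeks and Uqcrh at 14 weeks, and Cox6b2 was higher at both. Capitals mark matches to the letters searched, on either strand: an NRF1 motif and CCGGAAG for ETS factors such as GABP, regulators of nuclear respiratory genes. The NRF1 letters searched are the capitals in the Cox6a1 stretch, with any base allowed right after their only A. The stretches are chr9:44920743-44920992, chr5:115348982-115349208, chr4:116075072-116075320 and chr7:4753095-4753344, all read on the minus strand.
Atp5l: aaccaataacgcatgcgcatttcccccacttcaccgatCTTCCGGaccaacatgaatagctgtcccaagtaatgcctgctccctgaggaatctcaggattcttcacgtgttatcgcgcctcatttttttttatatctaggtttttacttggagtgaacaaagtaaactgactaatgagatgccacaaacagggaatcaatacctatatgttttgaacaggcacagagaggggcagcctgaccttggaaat
Cox6a1: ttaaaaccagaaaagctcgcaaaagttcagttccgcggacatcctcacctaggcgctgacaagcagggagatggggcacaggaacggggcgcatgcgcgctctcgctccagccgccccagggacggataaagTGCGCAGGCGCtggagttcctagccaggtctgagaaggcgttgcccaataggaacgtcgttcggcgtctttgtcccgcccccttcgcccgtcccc
Uqcrh: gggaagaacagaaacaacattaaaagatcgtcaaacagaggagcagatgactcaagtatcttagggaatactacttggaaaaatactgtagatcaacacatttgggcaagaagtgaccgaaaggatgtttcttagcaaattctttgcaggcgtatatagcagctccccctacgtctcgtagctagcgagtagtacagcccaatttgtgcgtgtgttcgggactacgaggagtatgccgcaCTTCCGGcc
Cox6b2: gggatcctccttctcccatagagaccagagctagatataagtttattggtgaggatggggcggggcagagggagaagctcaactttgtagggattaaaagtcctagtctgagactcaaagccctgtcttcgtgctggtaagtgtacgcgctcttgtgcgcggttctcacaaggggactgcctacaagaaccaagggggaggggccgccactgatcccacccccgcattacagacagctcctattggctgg

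The ETS letters were found in the promoters of 16 of the 71 members (22.5%), against 9.93% of 27025 genes in the table. The NRF1 motif was in 8 (11.3% against 2.77%), AAGATGGCG for YY1 in 8 (11.3% against 1.64%) and TCAAGGTCA for the estrogen-related receptors in 1 (1.41% against 0.466%). The last 3 letters of the ETS string are the first 3 of the YY1 string, but no member promoter held the 2 overlapping in that way (0 of 76). In melanotroph-like cells the members with an ETS match had a median log2 ratio, p25OE over WT, of -0.34 at 14 weeks and -0.44 at 40 weeks (16 genes), and those without one -0.42 and -0.47 (52 genes). For NRF1 the medians were -0.49 and -0.46 with a match (8 genes) and -0.38 and -0.44 without. For YY1 they were -0.27 and -0.53 with a match (8 genes) and -0.42 and -0.44 without, so the order differed between motifs and, for YY1, between ages. The Cox6b2 promoter held none of the 4 motifs, and the Cox6b1 promoter held 1 ETS match.

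In melanotroph-like cells the nuclear members stood lower in p25OE than in WT at both ages, relative to the median gene. Of the 81 that had at least 20 UMIs in both libraries, 78 had a log2 ratio below 0 at 14 weeks and 73 at 40 weeks, and 71 of 81 were below 0 at both (34.2% of all 10116 genes tested at both ages). The median log2 ratio was -0.40 at 14 weeks and -0.44 at 40 weeks, against 0.00 and -0.01 over all genes tested. At least 1.5-fold lower were 14 members at 14 weeks (8.92% of all 12458 genes tested) and 24 at 40 weeks (15.2% of all 10162), and 1 member was at least 1.5-fold higher at each age (11.6% and 13.2% of all genes). Uqcrq lay just inside the 14-week threshold (1.501-fold lower) and Atp5c1 just outside (1.485-fold). At 40 weeks these were Cox5a (1.51-fold) and Ndufaf6 (1.499-fold).

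The distance of the members from the median gene does not depend on the scaling, which shifts all genes alike, but the number past 1.5-fold does. Abundant genes as a whole stood lower in p25OE: among genes outside the list with at least 3000 UMIs (geometric mean of both libraries) the median log2 ratio was -0.23 at 14 weeks (428 genes, 14.5% at least 1.5-fold lower) and -0.13 at 40 weeks (489 genes, 12.1%). The members of that abundance had medians of -0.42 (47 members, 9 lower) and -0.50 (58 members, 21 lower). On plain CPM the median of all genes moved to 0.19 and 0.37, and the members' medians were -0.21 with 1 lower and -0.06 with 2 lower. The split of all genes into lower and higher then changed from 8.92% and 11.6% to 4.78% and 19.0% at 14 weeks, and from 15.2% and 13.2% to 7.10% and 33.5% at 40 weeks. Scaled by genes with at least 1000 UMIs in each library, an alternative chosen after seeing the data, the members' medians were -0.07 with 0 lower and -0.15 with 6 lower (all genes 0.33 and 0.28). Relative to the median of all genes the members' medians were -0.40 at 14 weeks and -0.43 at 40 weeks under each of these scalings.

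**Figure D1:**
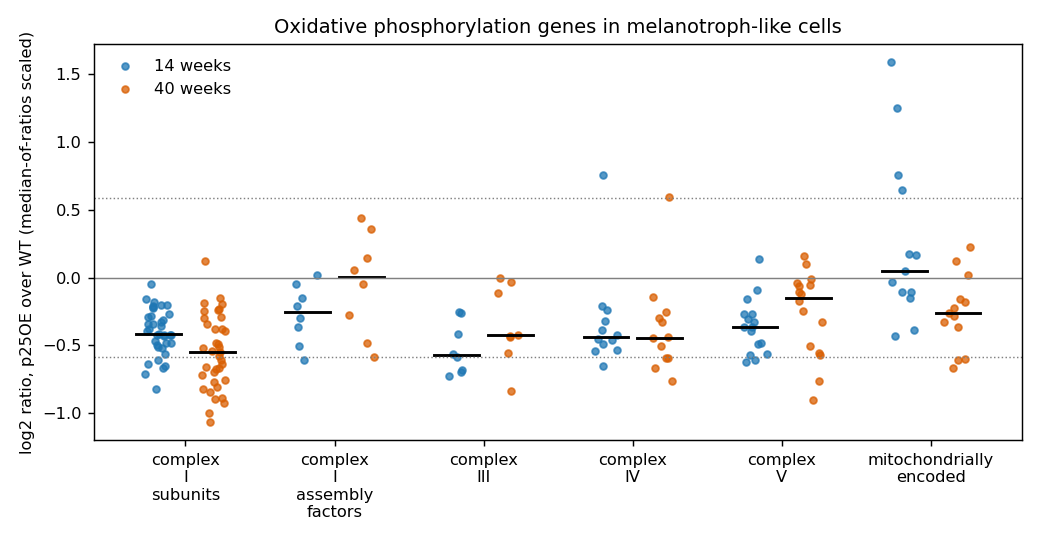
Each point is 1 gene in melanotroph-like cells, with the log2 ratio of p25OE over WT on the vertical axis (14 weeks blue, 40 weeks orange). Bars are medians over the genes of a group, the solid line is 0 and the dotted lines mark 1.5-fold. Complex I subunits are almost all below 0 at both ages, and complex V spreads from below the lower dotted line to above 0 at 40 weeks.

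Complex I, the NADH dehydrogenase, accepts electrons from NADH through a core of catalytic subunits surrounded by accessory ones. All 37 tested genes named as its nuclear subunits, Ndufa4 (below) among them, were below 0 at 14 weeks (median -0.42, 6 at least 1.5-fold lower). At 40 weeks 36 of 37 were (median -0.55, 17 at least 1.5-fold lower). Over all genes tested, 6206 of 12458 were below 0 at 14 weeks and 5172 of 10162 at 40 weeks, and 8.92% and 15.2% were at least 1.5-fold lower. These shares are the background for the counts by complex that follow. Ndufb6, an accessory subunit of the membrane arm, had scaled CPM of 167, 94.4, 302 and 183. It was the lowest at 14 weeks (1.77-fold lower, 1.66 to 1.88) and 1.65-fold lower at 40 weeks (1.54 to 1.75). Ndufa12, an accessory subunit near the catalytic modules, stood at 288, 175, 507 and 282 scaled CPM, 1.64-fold lower (1.56 to 1.72) and 1.80-fold lower (1.71 to 1.89). In both genes the p25OE library was the lower of its age pair, and the 40-week libraries were above the 14-week library of the same genotype.

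At 40 weeks the lowest genes named for complex I were Ndufa1 and Ndufa4. Ndufa1, on the X chromosome, is an accessory subunit needed to build the membrane arm, and stood at 252, 193, 543 and 259 scaled CPM. The p25OE level was 1.30-fold lower (1.24 to 1.37) and 2.10-fold lower (2.0 to 2.20) at the 2 ages. Ndufa4, named for complex I and counted there by its name but since assigned to complex IV, stood at 538, 400, 927 and 464. This is 1.35-fold lower (1.30 to 1.39) and 2.0-fold lower (1.92 to 2.07). For both, the 40-week WT library was the highest of the 4. Ndufa13, also called GRIM-19, went from 874 to 470 scaled CPM at 40 weeks (1.86-fold lower, 1.79 to 1.93). The catalytic subunit Ndufs1 was 1.03-fold lower at 14 weeks (interval 0.932 to 1.14, which includes 1) and 1.40-fold lower at 40 weeks (1.19 to 1.65). Ndufv1, which binds NADH, was 1.44-fold lower (1.35 to 1.53) and 1.11-fold lower (1.003 to 1.23). Ndufa10 was the 1 subunit above 0 at 40 weeks, at 1.09-fold higher (0.977 to 1.21, which includes 1).

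The 8 complex I assembly factors, which help to build the complex and are not part of it, had medians of -0.25 at 14 weeks and 0.01 at 40 weeks. Ndufaf5 alone passed 1.5-fold, at 14 weeks (1.53-fold lower, 1.20 to 1.95, from 10.8 to 7.07 scaled CPM). At 40 weeks 4 of the 8 were above 0 and 4 below, and none passed 1.5-fold. Ndufaf8 was within counting error of equal at both ages, at 93.2, 94.5, 155 and 150 scaled CPM.

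Complex III passes electrons from ubiquinol to cytochrome c. All 8 of its nuclear members were below 0 at both ages, with medians of -0.57 and -0.43. At least 1.5-fold lower were Uqcrb, Uqcrc1, Uqcrh and Uqcrq at 14 weeks (8.92% of all genes) and Uqcrb at 40 weeks (15.2%). Uqcrb, a ubiquinone-binding subunit, stood at 478, 289, 749 and 420 scaled CPM, 1.66-fold lower (1.6 to 1.72) and 1.78-fold lower (1.71 to 1.86). The core protein Uqcrc1 went from 90.6 to 55.8 scaled CPM at 14 weeks (1.63-fold lower, 1.5 to 1.77) and stood at 135 and 132 at 40 weeks (1.02-fold lower, 0.928 to 1.12). The other core protein, Uqcrc2, was 1.48-fold lower (1.38 to 1.58) and then within counting error of equal (1.003-fold lower, 0.906 to 1.11). At 40 weeks the 3 complex III genes nearest to 0 were these core proteins and the Rieske iron-sulfur subunit Uqcrfs1 (log2 ratio -0.12), and the other 5 lay between -0.84 and -0.42. Uqcrh, the hinge protein, was 1.6-fold lower (1.55 to 1.66) and 1.36-fold lower (1.31 to 1.40).

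Complex IV, cytochrome c oxidase, hands the electrons to oxygen. Of its 12 tested nuclear members, 11 were below 0 at each age (medians -0.44 and -0.45). Cox4i1, the widely expressed isoform of the largest nuclear subunit, stood at 663, 421, 1552 and 1142 scaled CPM, 1.57-fold lower (1.53 to 1.62) and 1.36-fold lower (1.32 to 1.40). Cox6c stood at 580, 398, 1043 and 656, 1.46-fold lower (1.41 to 1.51) and 1.59-fold lower (1.53 to 1.64). Cox6a1, whose promoter is shown above, stood at 199, 142, 696 and 409, 1.40-fold lower (1.33 to 1.48) and 1.70-fold lower (1.63 to 1.77). Cox5a and Cox6b1 passed 1.5-fold at 40 weeks too, each at 1.51-fold. Cox8a was the most abundant complex IV gene of the nucleus in WT at 14 weeks, at 1006, 696, 1661 and 1321 scaled CPM (1.45-fold and 1.26-fold lower). Cox7a2l, which takes part in joining complexes III and IV into supercomplexes, was close to equal at 40 weeks (1.10-fold lower, 1.06 to 1.15).

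The ATP synthase, complex V, has a catalytic head (F1) and a membrane part with a ring of c subunits. At 14 weeks 15 of 16 tested members were below 0 (median -0.37). At 40 weeks 14 of 16 were (median -0.15). Against the median of other genes of similar abundance (UMI bins split at 100, 300, 1000 and 3000), 13 of 16 were lower at 14 weeks (median difference -0.15). At 40 weeks only 9 of 16 were (-0.07). Over all 81 tested nuclear members, 72 were lower on this measure at 14 weeks (-0.23) and 67 at 40 weeks (-0.35). The head subunits Atp5a1, Atp5b, Atp5c1 and Atp5d were 1.24-fold, 1.29-fold, 1.48-fold and 1.40-fold lower at 14 weeks. At 40 weeks Atp5a1 was 1.01-fold lower (0.951 to 1.07), Atp5b 1.07-fold higher (1.02 to 1.12), Atp5c1 1.13-fold lower (1.07 to 1.20) and Atp5d 1.05-fold lower (0.990 to 1.10). Atp5e, a small head subunit, was the most abundant nuclear gene of complex V at 913, 857, 1604 and 1796 scaled CPM, and was 1.12-fold higher at 40 weeks (1.09 to 1.15).

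In the membrane part, Atp5l, subunit g, had 664, 431, 1601 and 854 scaled CPM from 7996, 9016, 5423 and 47816 UMIs. These are 1.54-fold lower (1.5 to 1.59) and 1.87-fold lower (1.82 to 1.93). Of the 3 genes for the c subunit, which encode the same mature protein, Atp5g1 was 1.53-fold lower (1.47 to 1.59) and 1.70-fold lower (1.64 to 1.77). Atp5g2 was 1.31-fold lower (1.28 to 1.35) and 1.04-fold lower (1.004 to 1.08). Atp5g1 therefore gave 27.9%, 25.4%, 42.6% and 32.0% of the c-subunit UMIs, lower in p25OE at each age by more than the counting intervals. Atp5g1 was also the member with the widest spread between classes in 14-week WT, in CPM of the UMIs outside hormone and mitochondrially encoded genes. It ran from 284 in macrophage-like to 1606 in lactotroph-like cells, with melanotroph-like cells at 590. The Gh and Prl share of melanotroph-like UMIs (above) was also lower in p25OE than in WT at each age. Both 40-week libraries had a higher Atp5g1 share than the 14-week ones, where age and batch cannot be told apart. The part of free lactotroph RNA in the Atp5g1 values was not tested.

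**Figure D2:**
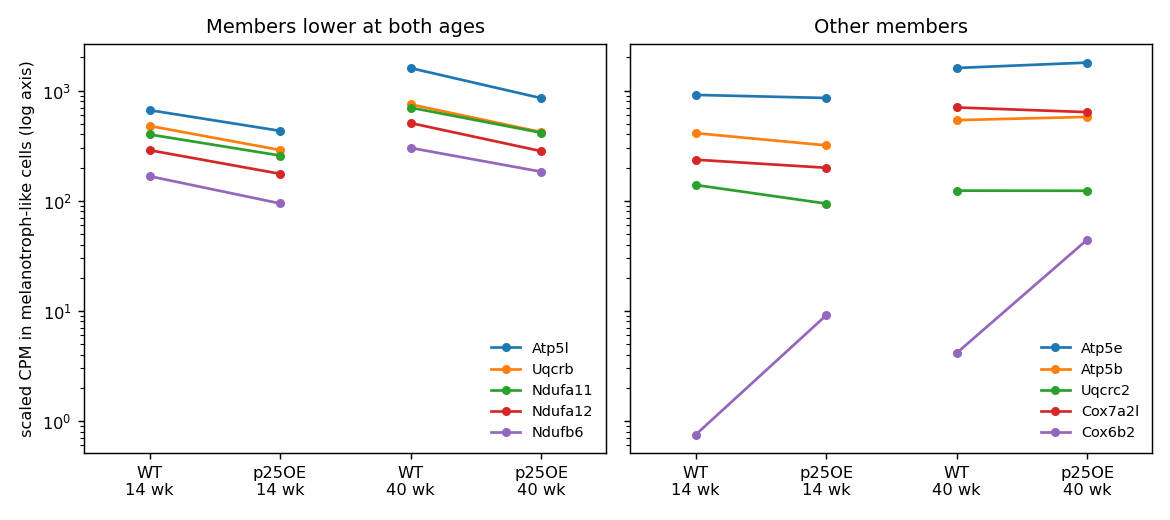
Scaled CPM in melanotroph-like cells on a log axis, for 5 members at least 1.5-fold lower in p25OE at both ages (left) and 5 other members (right), with 1 point a library and lines joining WT and p25OE of the same age. The left panel slopes down in both age pairs, while on the right Atp5b and Uqcrc2 slope down at 14 weeks only and Cox6b2 goes up from 0.748 to 9.08 and from 4.13 to 44.2.

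At least 1.5-fold lower at both ages were 9 members: Ndufa6, Ndufa11, Ndufa12, Ndufb2, Ndufb6, Ndufc2, Uqcrb, Atp5g1 and Atp5l. They are 11.1% of the 81 members tested at both ages, against 4.11% of all genes. Across these 81 genes Pearson's r between the ages was 0.457 and Spearman's rho 0.355, a description only, since genes are not independent replicates. Cox7a1, the heart and skeletal muscle isoform, was the 1 member at least 1.5-fold higher at both ages (4.18% of all genes), from 29, 85, 20 and 498 UMIs. Its 40-week WT count equals the minimum for a test. The call was lost at 40 weeks with at most 10% mitochondrial UMIs, with at least 1000 genes, without the deepest cells, without dividing cells and with the gate at 20, and at 14 weeks by per-cell CPM. Its ratios were 1.69 (1.09 to 2.67) and 1.51 (0.965 to 2.49, which includes 1).

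Of the 89 nuclear members 8 did not reach 20 UMIs in both libraries, because they are low in WT melanotroph-like cells: Cox4i2, Cox6a2, Cox6b2, Cox7b2, Cox8b, Cox8c, Ndufa4l2 and the empty Atp5o entry. All but Atp5o are tissue-restricted isoforms or relatives of a common subunit. Cox6b2, the testis isoform of the COX6B subunit that bridges the cytochrome c oxidase dimer, stood apart. It had 9, 190, 14 and 2476 UMIs, or 0.748, 9.08, 4.13 and 44.2 scaled CPM, in melanotroph-like cells. The p25OE level was 12.1-fold that of WT at the younger age (6.26 to 27.0) and 10.7-fold at the older (6.37 to 19.6), while Cox6b1 was 1.34-fold and 1.51-fold lower. Cox6b2 made up 0.176%, 2.80%, 0.509% and 7.64% of COX6B UMIs. The exact binomial intervals of WT and p25OE do not overlap at either age. Cox6b2 was singled out after its values were seen.

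In the same libraries Cox6b2 was highest in stem-like cells, with 8.22% (WT) and 10.5% (p25OE) of COX6B UMIs at 14 weeks and 9.33% in 40-week WT. The 8 stem markers in melanotroph-like cells had summed levels of 0.903, 1.49, 1.95 and 0.854 per 10000 UMIs, none of them at 0. The sum was higher in p25OE than in WT at 14 weeks and lower at 40 weeks, and its part in the Cox6b2 values was not tested. The difference was not confined to melanotroph-like cells. At 14 weeks the ratio was 6.09 in corticotroph-like cells (1.42 to 54.9, from 2 and 15 UMIs) and 4.45 in lactotroph-like cells (1.82 to 11.9, from 8 and 17 UMIs). It was 1.35 in stem-like (1.03 to 1.76), 1.53 in somatotroph-like (0.794 to 2.94) and 0.849 in macrophage-like cells (0.349 to 2.07). At 40 weeks it was 5.49 in lactotroph-like (1.83 to 13.8, 6 UMIs in p25OE) and 4.74 in macrophage-like cells (1.52 to 17.4). The part of free melanotroph RNA in these ratios was not tested. For comparison, macrophage-like cells held 5.47 CPM in 14-week WT and 4.63 CPM in p25OE (median depths 3490.5 and 3324.5 UMIs per cell). At 40 weeks the macrophage-like values were 2.92 CPM (5 UMIs) and 17.4 CPM (11 UMIs in 161 cells), and the melanotroph-like ones 3.22 and 44.9 CPM. WT melanotroph-like cells (0.792 CPM at 14 weeks) lay below the macrophage-like value at 14 weeks and close to it at 40 weeks. They were deeper, with medians of 17470 and 6567 UMIs per cell against 3490.5 and 2402. Macrophage-like CPM is therefore not a like-for-like measure of free RNA in them.

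**Figure D3:**
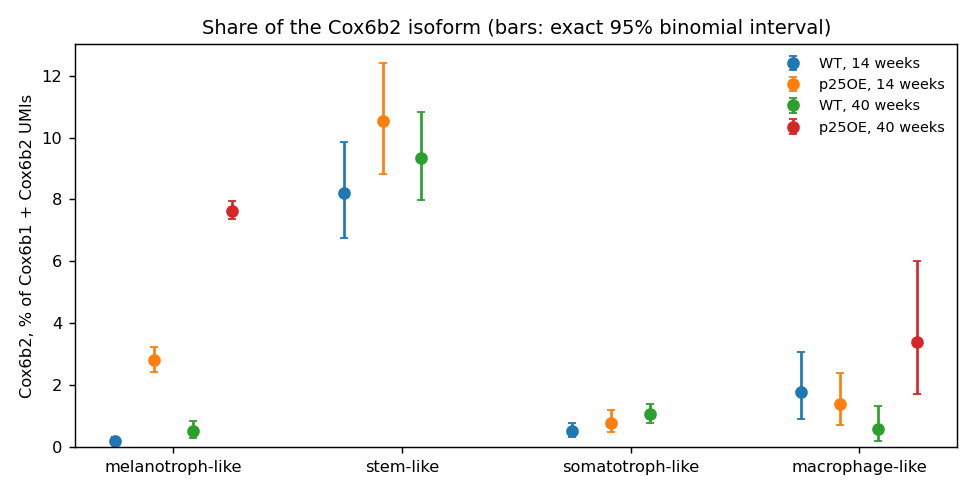
Cox6b2 as a percent of all COX6B UMIs (vertical axis) in 4 classes and up to 4 libraries, with exact 95% binomial intervals as bars that cover counting error only. WT melanotroph-like cells lie near 0, p25OE melanotroph-like cells at 2.80% and 7.64%, and stem-like cells of each library shown between 8.22% and 10.5%.

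The other restricted isoforms stayed rare. Cox4i2, the lung isoform, had 4, 8, 4 and 124 UMIs, with ratios of 1.15 (0.308 to 5.22) and 1.88 (0.714 to 6.99), both including 1. Ndufa4l2, a hypoxia-responsive relative of Ndufa4, had 0, 12, 3 and 88 UMIs. Against a floor of 3 counts in the WT library it was at least 2.30-fold higher in p25OE at 14 weeks, and its 40-week ratio of 1.78 had an interval of 0.588 to 8.77. Cox7b2 was lower in p25OE at 40 weeks, on 9 and 12 UMIs (ratio 0.0807, 0.0312 to 0.217).

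The mitochondrially encoded members did not follow the nuclear ones at 14 weeks. Their median log2 ratio in melanotroph-like cells was 0.05 at the younger age, where 4 of 13 passed 1.5-fold upward (11.6% of all genes) and 0 downward (8.92%). It was -0.26 at the older age, where 3 of 13 passed it downward (15.2%) and 0 upward (13.2%). Relative to the median gene, the 40-week median lay between -0.26 and -0.10 over 13 settings. The 14-week one lay between -0.08, with at most 10% mitochondrial UMIs per cell, and 0.28, so its direction depends on the cell filter. The members took 5.62%, 6.44%, 4.31% and 4.10% of melanotroph-like UMIs, and the nuclear members 2.51%, 2.14%, 3.21% and 3.06%. The ratio of nuclear to mitochondrially encoded UMIs was 0.446, 0.332, 0.745 and 0.745. This ratio needs no scaling between libraries.

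The 4 genes higher at 14 weeks were mt-Atp8, mt-Nd4l, mt-Nd5 and mt-Nd6. mt-Atp8, a small ATP synthase subunit, went from 118 to 355 scaled CPM (3.01-fold, 2.85 to 3.19), and mt-Nd4l, a complex I subunit, from 375 to 894 (2.38-fold, 2.31 to 2.46). The gene mt-Atp8 overlaps mt-Atp6 and mt-Nd4l overlaps mt-Nd4 on the same strand, and each pair is made as a single RNA, yet mt-Atp6 had a ratio of 0.979 (0.973 to 0.986) and mt-Nd4 of 1.13 (1.12 to 1.14). The genes mt-Nd5 and mt-Nd6 overlap on opposite strands. How the counting assigned tags in these overlaps is not given in the sources used here, so these 4 genes are uncertain.

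All 4 were above 0 in each of the 7 classes compared at 14 weeks, and mt-Atp8 and mt-Nd4l were the 2 highest of the 13 in each. For mt-Atp8 the log2 ratio was 1.59 in melanotroph-like, 1.41 in corticotroph-like, 1.17 in somatotroph-like and 1.17 in lactotroph-like cells. It was 1.29 in stem-like, 1.6 in macrophage-like and 1.51 in T or NK-like cells. For mt-Nd4l these values ran from 0.84 (lactotroph-like) to 1.6 (macrophage-like). At 40 weeks both ratios in melanotroph-like cells included 1: mt-Atp8 was 1.13-fold lower (0.970 to 1.32) and mt-Nd4l was equal within counting error (1.01-fold, 0.881 to 1.17).

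At 40 weeks the lower genes were mt-Nd1, mt-Atp6 and mt-Co1. mt-Nd1, a core complex I subunit, stood at 1958, 1453, 5288 and 3321 scaled CPM (1.59-fold lower at 40 weeks, 1.57 to 1.62). mt-Co1, the catalytic subunit of complex IV, stood at 8128, 9100, 11206 and 7401 (1.51-fold lower at 40 weeks, 1.5 to 1.53). The make-up of the mitochondrial RNA differed more between ages than between genotypes for some genes. mt-Nd1 gave 3.69%, 2.72%, 9.57% and 8.22% of the mitochondrially encoded UMIs of melanotroph-like cells, and mt-Nd3 1.52%, 1.15%, 0.336% and 0.499%. Both 14-week libraries lay on one side and both 40-week libraries on the other.

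**Figure D4:**
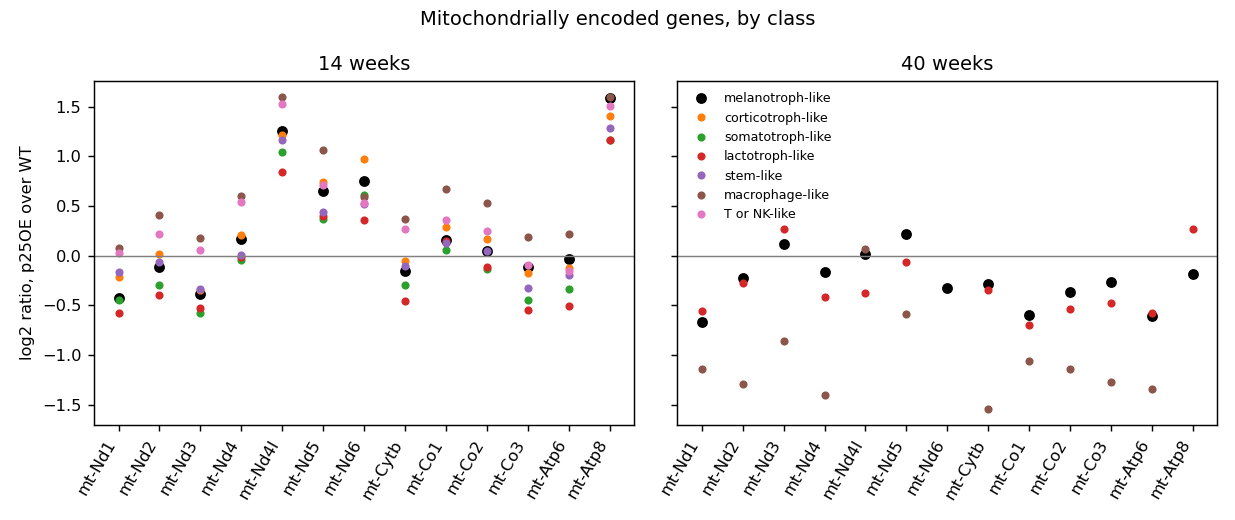
Log2 ratio of p25OE over WT (vertical axis) for each mitochondrially encoded gene, with 1 point a class and melanotroph-like cells in black. At 14 weeks mt-Nd4l and mt-Atp8 are the highest genes in each of the 7 classes, and at 40 weeks macrophage-like cells lie lowest for all but mt-Nd4l among the genes they could be tested for.

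At 14 weeks no other class had a nuclear median as low as the melanotroph-like one. The medians were -0.11 in corticotroph-like (0 of 79 at least 1.5-fold lower, against 4.94% of all genes), -0.08 in somatotroph-like (0 of 82, against 5.07%) and 0.02 in lactotroph-like cells (0 of 81, against 3.43%). They were -0.10 in stem-like (0 of 82, against 3.91%), -0.03 in macrophage-like (2 of 78, against 6.17%) and 0.02 in T or NK-like cells (0 of 72, against 6.24%). At least 1.5-fold higher were 1 member in corticotroph-like (7.35% of all genes), 1 in somatotroph-like (6.65%), 2 in lactotroph-like (10.3%), 0 in stem-like (7.01%) and 1 in T or NK-like cells (8.72%). With 1 library a genotype the difference between classes was not tested. At 40 weeks only 2 other classes had at least 50 cells in both libraries, and both were lower as well. The median was -0.33 in lactotroph-like cells (13 of 73 lower, against 8.94% of all genes, with 54 p25OE cells) and -0.33 in macrophage-like cells (8 of 72 lower, against 9.15%, with 161 p25OE cells). In both, complex I subunits had the lowest median of any complex with more than 3 tested members (-0.41 in each), as in melanotroph-like cells.

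Single members of the 9 differed in how they behaved in other classes. Atp5l had ratios of 0.94 in corticotroph-like, 0.92 in somatotroph-like, 1.01 in lactotroph-like and 1.06 in macrophage-like cells at 14 weeks. At 40 weeks its ratio was 0.71 in lactotroph-like and 0.79 in macrophage-like cells. Ndufc2, an accessory complex I subunit, had 0.96 in lactotroph-like and 0.97 in macrophage-like cells at 14 weeks, and 0.58 and 0.60 at 40 weeks. Atp5g1 was already lower at 14 weeks, with ratios of 0.738 in corticotroph-like (0.685 to 0.795), 0.816 in lactotroph-like (0.798 to 0.834) and 0.827 in stem-like cells (0.757 to 0.903), and 0.619 and 0.648 in lactotroph-like and macrophage-like cells at 40 weeks. In macrophage-like cells 6 of 13 mitochondrially encoded members were at least 1.5-fold higher at 14 weeks (median 0.53, against 5.11% of all genes). At 40 weeks 10 of 11 were at least 1.5-fold lower (median -1.14, against 9.15% of all genes). Over all kept cells 1 of 87 nuclear members was at least 1.5-fold lower at 14 weeks (6.97% of all genes) and 6 of 86 at 40 weeks (20.2%). The medians were -0.20 and -0.18, which is -0.18 and -0.19 relative to the median of all genes. All kept cells mix classes in different shares, and melanotroph-like cells were 8.65%, 21.5%, 8.29% and 85.2% of them.

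**Figure D5:**
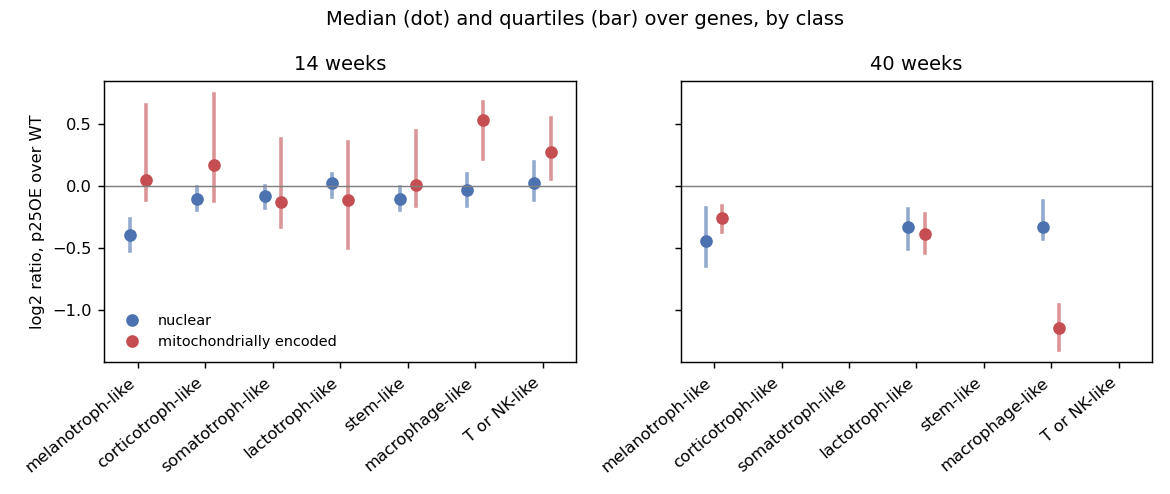
Median log2 ratio of p25OE over WT (dots) with the quartiles over genes (bars) for nuclear and mitochondrially encoded members in each class with at least 50 cells in both libraries. At 14 weeks the nuclear dot of melanotroph-like cells (-0.40) lies below those of the other 6 classes, and at 40 weeks the 3 classes lie between -0.44 and -0.33.

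Among WT classes at 14 weeks, nuclear members took 3.5% of UMIs outside hormone and mitochondrially encoded genes in melanotroph-like cells, 3.32% in corticotroph-like and 3.11% in lactotroph-like cells. The share was 2.58% in somatotroph-like, 2.42% in stem-like, 2.10% in T or NK-like and 1.48% in macrophage-like cells. Of 90 members with enough UMIs, nuclear and mitochondrially encoded, 41 were highest in melanotroph-like, 20 in corticotroph-like and 16 in stem-like cells. All 13 mitochondrially encoded members were highest in stem-like cells, so the 41 are all nuclear. Macrophage-like cells were lowest for 73 of the 90, and the highest class stood a median of 2.46-fold above the lowest. Ndufa11, an accessory complex I subunit, was at 591 CPM of those UMIs in melanotroph-like and 115 in macrophage-like cells. It is 1 of the 9 members lower in p25OE melanotroph-like cells at both ages (1.55-fold and 1.69-fold). The assembly factor Ndufaf7 varied least, from 29.1 to 41.4. The WT share in melanotroph-like cells was higher at 40 weeks (4.87%) than at 14 weeks, and so was that of macrophage-like cells (2.43%), where age and batch cannot be told apart.

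Other genes of mitochondrial energy metabolism were taken from fixed lists, in melanotroph-like cells. The background for their counts is the share of all genes at least 1.5-fold lower (8.92% at 14 weeks, 15.2% at 40 weeks) or higher (11.6% and 13.2%). Complex II and cytochrome c (6 genes) had medians of -0.47 and -0.35, with 2 at least 1.5-fold lower at 14 weeks and 0 at 40 weeks. Cycs, cytochrome c, went from 137 to 69.5 scaled CPM at 14 weeks (1.97-fold lower, 1.84 to 2.12) and from 216 to 156 at 40 weeks (1.38-fold lower, 1.28 to 1.49). The tricarboxylic acid cycle with pyruvate dehydrogenase (16 genes) had a median of -0.45 at 14 weeks (1 lower, 0 higher) and 0.14 at 40 weeks (1 lower, 2 higher). Pdha1, which encodes the catalytic part of pyruvate dehydrogenase, was 1.63-fold lower at 14 weeks (1.42 to 1.87). Slc25a3, the mitochondrial phosphate carrier, went from 745 to 379 scaled CPM at 14 weeks (1.96-fold lower, 1.91 to 2.02) and was 1.16-fold lower at 40 weeks (1.11 to 1.21). Atpif1, the inhibitor of the ATP synthase, was 1.24-fold lower and then 1.68-fold lower (1.63 to 1.73).

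The 27 assembly proteins of respiratory complexes had medians of -0.03 (27 tested, 0 lower, 1 higher) and -0.13 (25 tested, 4 lower, 4 higher). The 78 mitochondrial ribosomal proteins, which translate the 13 mitochondrially encoded genes, had medians of -0.21 (77 tested, 3 lower, 0 higher) and -0.17 (76 tested, 4 lower, 5 higher). Among 15 regulators of mitochondrial gene expression 2 were lower and 0 higher at 14 weeks (15 tested) and 2 lower and 2 higher at 40 weeks (11 tested). Ppargc1a, the coactivator PGC-1 alpha, went from 9.31 to 4.83 scaled CPM at 14 weeks (1.93-fold lower, 1.46 to 2.55). Tfam, which packages mitochondrial DNA and starts its transcription, was 1.34-fold higher (1.18 to 1.53), and at the older age 1.61-fold higher (1.27 to 2.06).

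Genes of glycolysis and lactate handling had medians above 0, 0.16 at 14 weeks and 0.29 at 40 weeks. At least 1.5-fold higher were 2 of 22 and 6 of 22 (11.6% and 13.2% of all genes), and 1 and 2 were lower (8.92% and 15.2%). Tpi1, triose phosphate isomerase, went from 132 to 231 scaled CPM (1.74-fold higher, 1.65 to 1.85) and from 169 to 448 (2.65-fold higher, 2.44 to 2.88). Aldoc, an aldolase isoform, was 2.79-fold higher at 14 weeks (2.45 to 3.18), while its 40-week level was 1.18-fold below WT (1.05 to 1.34). Ldhb, the heart-type lactate dehydrogenase subunit, went from 41.6 to 17.7 scaled CPM at 40 weeks (2.35-fold lower, 1.96 to 2.81). The uncoupling protein Ucp2 stood at 182, 164, 253 and 437 scaled CPM, 1.11-fold lower (1.05 to 1.17) and then 1.73-fold higher (1.61 to 1.85).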

How the data were processed

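Whole mouse pituitaries were profiled with 10x Genomics single-cell 3' libraries, 1 library for each genotype and age. The deposited matrices hold whole-number UMI counts per gene and barcode, made by the authors with Cell Ranger 3.0.2 on mm10 per the submitters' processing notes (3.0.1 per the file headers). Gene positions came from GENCODE vM21 (GRCm38). The barcode and feature lists carry names only.

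Barcodes with at least 500 detected genes and at most 20% mitochondrial UMIs were kept. Classes were set per cell by summed marker UMIs per 10000, for example Pcsk2, Pax7, Oacyl and Esm1 at 10 or more with Pomc at 100 or more for melanotroph-like cells. Cells that passed 2 gates (36 to 284 a library) were left out of every class, which was the only treatment of doublets, and no doublet caller was run. Kept libraries shared 0 to 85 cell barcodes. Counts were summed per class and library and divided by median-of-ratios size factors over genes with at least 20 UMIs in each library used. Ratios have exact 95% Poisson intervals and shares have exact (Clopper-Pearson) binomial ones. UMIs of a cell are not replicates, so both cover counting error only. A gene was tested with at least 20 UMIs in both libraries and counted as lower or higher from 1.5-fold. The naming rule took the 13 mitochondrially encoded members and the isoform sets, and, per nuclear group, the 2 highest and 2 lowest ratios at each age (at least 50 UMIs in both libraries) and the 2 most abundant. It also took the 3 members with the widest spread between classes and the highest and lowest ratio of each other list. Others are named to complete a comparison, chosen after their values were seen.

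The members and all lists were chosen with earlier results of these data known. Analyses used Python 3.11.15, numpy 2.4.6, scipy 1.17.1 and pandas 2.3.3. The ratio code was run on simulated Poisson counts with known folds. These had no spread between libraries and no shift with abundance, so they check the code and not the results. The alternatives covered scaling, cell filters, UMI minimums, per-cell averaging, dividing cells and the gate.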

Additional observations from a re-analysis of the deposited data

How the results depend on the processing

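Of 118 recomputed values, 74 stayed close to the reported one, 39 moved and 5 reversed. Scaling by genes with at least 1000 UMIs and the gate at 20 per 10000 were chosen after seeing the data. In melanotroph-like cells the nuclear median at 14 weeks was -0.2121 on plain CPM, -0.3163 on CPM outside hormone and mitochondrially encoded genes and -0.06688 scaled by abundant genes, with 1, 6 and 0 members lower. At 40 weeks it was -0.05929 on plain CPM and -0.1494 scaled by abundant genes, with 2 and 6 lower. The count of 1 higher member (Cox7a1) at 14 weeks became 2 at 5 UMIs, 3 with no minimum and 0 by per-cell CPM. At 40 weeks it became 3 on plain CPM and under abundant-gene scaling, 2 at 5 UMIs and by per-cell CPM, and 5 with no minimum. It became 0 at 10% mitochondrial UMIs, at 1000 genes, without the 6% deepest cells, without dividing cells and with the gate at 20.

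The mitochondrially encoded median at 14 weeks reversed to -0.08155 at 10% mitochondrial UMIs. It moved to 0.2349 (plain CPM), 0.1308 (CPM outside hormone and mitochondrially encoded genes), 0.06772 (no mitochondrial limit), 0.03091 (1000 genes), 0.2868 (per-cell CPM), 0.1286 (without the deepest cells), 0.1633 (without dividing cells) and 0.3802 (abundant-gene scaling). At 40 weeks it reversed to 0.1197 on plain CPM and 0.02952 under abundant-gene scaling, and moved to -0.1679 at 1000 genes and -0.1695 without dividing cells. Over all kept cells the nuclear median reversed on plain CPM to 0.07536 at 14 weeks and 0.3519 at 40 weeks. It moved at 14 weeks to -0.07802 (CPM outside those genes), -0.2676 (without the deepest cells) and -0.08102 (abundant-gene scaling), and at 40 weeks to -0.03913, -0.2332 (per-cell CPM) and -0.1306 (abundant-gene scaling). A change of scaling shifts all genes alike, so these reversals on plain CPM and under abundant-gene scaling leave the distance from the median gene as it was (nuclear, all kept cells: -0.18 and -0.19, mitochondrially encoded at 40 weeks: -0.25). The cause of the other changes was not tested. No paired analysis was possible because each genotype and age is 1 library. Depth limits the low isoforms, which had 0 to 14 UMIs in the WT libraries.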

Other observations

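Dividing cells were taken as those with UMIs of at least 2 of 10 mitosis genes. They were 305 of the 1652 p25OE melanotroph-like cells at 14 weeks (18.5%) and 1843 of 6584 at 40 weeks (28.0%). In WT they were 6 of 569 and 1 of 657. Against the other p25OE melanotroph-like cells, nuclear members had median log2 ratios of -0.06 at both ages, and the mitochondrially encoded members -0.43 and -0.21. mt-Nd6 (ratio 0.643, 0.576 to 0.716) and mt-Nd4l (0.668, 0.645 to 0.691) were the 2 lowest members at 14 weeks. Cox6b2 was 2.09-fold higher in dividing cells at 14 weeks (1.56 to 2.81) and 1.65-fold higher at 40 weeks (1.53 to 1.79). The other p25OE cells held 98 of its 190 UMIs at 14 weeks and 1178 of 2476 at 40 weeks. The part of dividing cells in the Cox6b2 difference between genotypes was not tested. Dividing cells were deeper, with median UMIs of 13532 against 7475 and 9707 against 6360.

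The 20% limit on mitochondrial UMIs removed very different shares of barcodes with at least 500 genes: 9.44% and 9.53% in WT and p25OE at 14 weeks, and 0.0630% and 0.477% at 40 weeks. It fell unevenly on the classes. At 14 weeks it took 29.98% of WT and 20.4% of p25OE barcodes in the stem gate, but 1.04% and 2.94% of those in the melanotroph gate. Over all removed barcodes at 14 weeks the nuclear members took 2.0% of UMIs outside hormone and mitochondrially encoded genes in WT and 1.58% in p25OE.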
